A study of Mus musculus with 4 samples.

Results

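The genes described are those of the cytosolic ribosomal proteins, taken from the gene table by name. A gene was included if its identifier maps to a mouse symbol of the form Rps or Rpl followed by a number and at most 1 of the letters a, x, y or l, or to Rpsa, Rplp0, Rplp1 or Rplp2, and pseudogene symbols were left out. The rule gave 83 of the 53715 genes in the table, 32 for the small (40S) and 51 for the large (60S) subunit. Of these, 76 are standard subunit genes (30 small, 46 large) and 7 have a symbol ending in l, called second genes below. The main transcripts used for Rps4l, Rpl6l and Rpl32l have no annotated coding sequence, so a protein from these genes is not assumed. No measured value was used to choose them.

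Counts came from 4 RNA-seq libraries of C57BL/6 mouse cells at E12.5 that are labelled as primordial germ cells, the embryonic precursors of eggs and sperm. The WT group is wild type, and the Rif1_KO group is labelled as a knockout of Rif1, a chromatin protein known for replication timing and break repair, with 2 libraries in each. Every library held 1000 cells enriched with magnetic beads, and its full-length cDNA was made by Smart-seq2 with changes and cut with the transposase Tn5. The knockout allele, the enrichment marker, the sex of the embryos and the number of embryos behind each library are not given in the sources used here, so the p-values below measure a spread that may be technical. Values are listed throughout as replicates 1 and 2 under the label WT, then replicates 1 and 2 under the label Rif1_KO.

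Rif1 itself had 43.7, 4.73, 86.2 and 63.9 CPM (counts per 1000000 of the library total after TMM scaling), so its level goes against the labels, and each direction below is only that of the labels. The libraries held 11724630 to 14421298 counts. Of 14 germ cell markers, 10 passed the filter on low counts, and their summed level over all 14 was 57.8, 472, 41.0 and 38.6 CPM, with the highest sum in WT replicate 2. Dazl had 13.0, 196, 2.03 and 4.08 CPM and Prdm14 19.9, 18.4, 0.452 and 0.106 CPM. Of the 10 tested germ cell markers 0 were called by edgeR and 3 by DESeq2, with 5 at an unadjusted edgeR p under 0.05. Over all tested genes these shares were 0.0129%, 3.36% and 8.41%. Pou5f1 (1.20, 0.967, 0.301 and 0.583 CPM) and Nanos3 (0.737, 2.26, 0.603 and 0.424 CPM) were low in all 4 libraries, and Mael was at 0 in Rif1_KO replicate 2. The summed level of 15 erythroid markers was 138804, 113293, 9917 and 4282 CPM, with Klf1 at 0 in Rif1_KO replicate 2. EdgeR called 2 of these 15, the only 2 called among all tested genes. DESeq2 called 9 of the 15, and 11 had an unadjusted edgeR p under 0.05. The summed level of 10 stromal markers was 542, 400.0, 1622 and 1326 CPM, with Lum at 0 in WT replicate 2. Of these 10, edgeR called 0 and DESeq2 1, with 6 at an unadjusted edgeR p under 0.05. The sums were 601, 563, 498 and 487 CPM for 10 gonadal supporting cell markers, 254, 113, 84.2 and 169 CPM for 8 endothelial markers and 2.67, 19.2, 6.63 and 3.71 CPM for 8 leukocyte markers. EdgeR and DESeq2 called 0 markers in each of these lists. The part of these other cells in the results below was not tested, and in such bulk samples fewer cells of a type and less RNA per cell cannot be told apart.

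The ribosome is built from a small subunit, which binds mRNA and reads codons, and a large subunit, which forms peptide bonds and carries the exit tunnel. Cells need the proteins of both subunits in matched amounts, and their transcripts are among the most abundant of growing cells. Most of these mRNAs in mammals begin with a C followed by a run of pyrimidines, the 5′ TOP motif, through which mTOR signalling and Larp1 set their translation together. Primordial germ cells divide quickly at this stage of gonad formation, and the choice between a standard ribosomal protein gene and its second gene is known to differ between germ cells and other tissues.

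The starts of the genes were read first, since a shared pyrimidine run is the best known feature of this class and the naming rule did not use it. The run searched for was a C followed by at least 4 bases that are each C or T, in the 15 bases before and the first 15 bases of the transcript, from RefSeq's annotated starts on GRCm38.p6. Of 76 standard genes 56 had an entry, and 37 of these (66.1%) held the run, against 40.3% of 27025 genes in the same table. The shares were 15 of 22 (68.2%) for the small and 22 of 34 (64.7%) for the large subunit. On the opposite strand the run occurred in 30.4% of the ribosomal protein genes and in 44.5% of all genes. It began within 3 bases of the annotated start in 25.0% of the ribosomal protein genes and in 11.6% of all genes. Among genes with a single annotated start the shares were 60.4% and 36.3%. The windows below, 5′ to 3′ on the strand of the gene with the longest run in capitals, belong to genes that stand at the ends of the level or fold change order described later, or to the stalk of the large subunit.
Rpl35 at chr2:39005117-39005146, minus strand: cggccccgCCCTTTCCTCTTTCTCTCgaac
Rps27 at chr3:90213634-90213663, minus strand: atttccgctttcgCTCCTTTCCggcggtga
Rps6 at chr4:86857353-86857382, minus strand: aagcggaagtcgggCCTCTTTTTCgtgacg
Rps10 at chr17:27635230-27635259, minus strand: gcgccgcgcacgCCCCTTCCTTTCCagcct
Rps26 at chr10:128626492-128626521, minus strand: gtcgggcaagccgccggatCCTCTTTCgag
Rplp2 at chr7:141447636-141447665, plus strand: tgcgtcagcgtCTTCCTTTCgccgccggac
Rpl41 at chr10:128549154-128549183, minus strand: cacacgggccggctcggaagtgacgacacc
Rps25 at chr9:44407699-44407728, plus strand: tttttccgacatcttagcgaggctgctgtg
Rps28 at chr17:33824548-33824577, minus strand: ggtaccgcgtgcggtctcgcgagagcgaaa
Rpsa at chr9:120127751-120127780, plus strand: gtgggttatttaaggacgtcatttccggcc

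The first 6 windows hold a run and the last 4 hold none. They were picked among the genes at those ends or of the stalk, so these numbers are not shares. Among such genes not shown, Rplp0, Rpl9 and Rpl37 had a window without a run, and Rpl13, Rps2 and Rpl36a one with a run. A window without a run says only that these letters are not in it. An annotated start can lie away from the start used in a tissue. A run was found in 14 of 21 standard genes with a fitted log2 fold change above 0 and in 23 of 35 with one below 0, which are shares of 66.7% and 65.7%. A match is a description of the letters, not of a working site.

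All 76 standard genes were well covered, with 664 to 38097 counts in each library. They lie on 19 chromosomes, with 14 of them on chromosome 7. Per kilobase of the main transcript, the small subunit genes had a median level of 810, 693, 783 and 600 CPM per kb and the large subunit genes one of 618, 556, 630 and 484 CPM per kb. The difference of the median log2 levels per kb between the subunits was 0.39, 0.32, 0.31 and 0.31, higher for the small subunit in 4 of 4 libraries. Per kb of the main transcript the levels also spread more widely within the small subunit. The SD over genes was 1.25, 1.18, 1.19 and 1.20 on the log2 scale, against 0.89, 0.86, 0.80 and 0.83 for the large one. Mean levels over the libraries ran from 62.3 (Rps20) to 2724 (Rps27) CPM per kb, against 165 (Rpl12) to 2460 (Rpl41) for the large subunit. Per kb of all merged exons the large subunit had the wider range, 31.2 (Rpl22) to 1503 (Rpl35) against 50.7 (Rps15a) to 901 (Rps27). The wider spread of the small subunit thus depends on the length used, and the SD was not compared per merged exons. The plot of levels by library shows the standard genes in 1 dense band, with Rps27l inside it, Rps4l and Rpl6l near its lower end and the other 4 second genes far below.

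**Figure D1:**
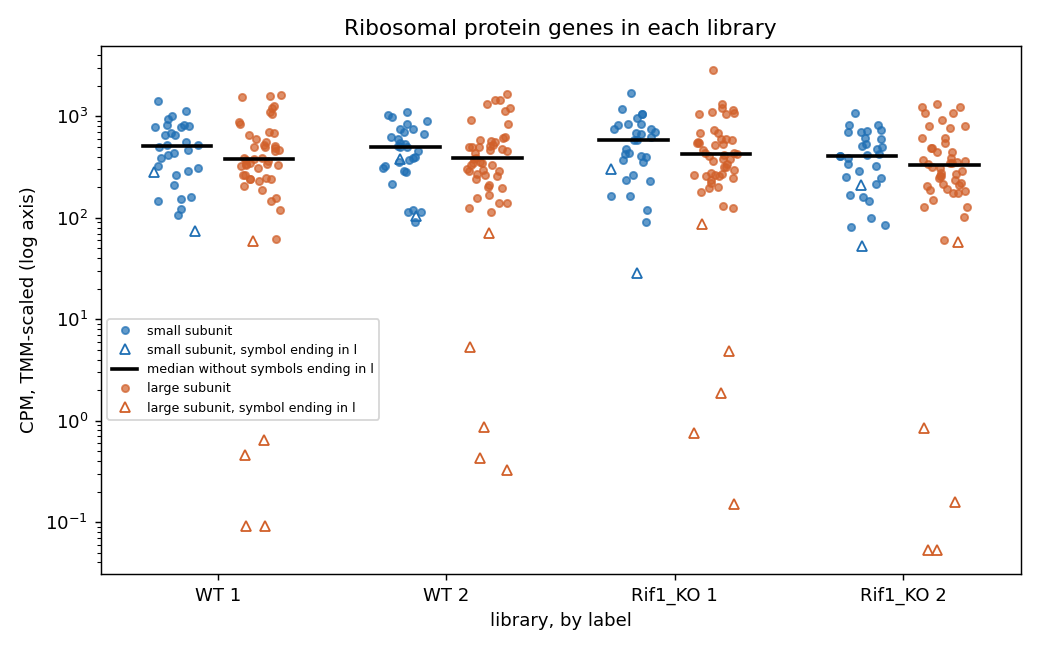
Level of each ribosomal protein gene in each library, in CPM on a log axis, with small subunit genes in blue and large subunit genes in orange. Circles are the 76 standard genes, triangles the 7 genes with a symbol ending in l, and bars the medians of the standard genes. Several large subunit triangles lie below 10 CPM in every library, while the standard genes lie near the same band in all 4.

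Per length the highest small subunit gene was Rps27, which encodes a zinc-finger protein and whose window above holds a run. It was at 3247, 2433, 2821 and 2395 CPM per kb. Rps14, whose protein lines the path of the mRNA on the platform of the small subunit, followed with 2394, 1858, 1978 and 1809 CPM per kb. Rps25, known for its part in initiation at viral internal entry sites, had 1441, 1792, 2938 and 1211 CPM per kb. In the large subunit Rpl41, which encodes a very short and basic peptide, was highest with 2754, 2570, 2400 and 2115 CPM per kb. Rpl35, whose protein sits at the exit of the peptide tunnel, had 1692, 1766, 3034 and 1394 CPM per kb, and Rpl13 had 1430, 1081, 872 and 1029 CPM per kb. Neighbours in this order did not keep it: Rpl41 was above Rps27 in WT replicate 2, and Rpl35 and Rps25 were above both only in Rif1_KO replicate 1. The standard gene with the lowest level per length was Rps20, with 57.2, 76.3, 71.1 and 44.9 CPM per kb, but its main transcript model of 3706 bases is the longest of the small subunit, where the median is 650.5 bases. Rps2, whose protein lies at the entry of the mRNA channel, was next with 106, 120, 90.1 and 85.1 CPM per kb.

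A read lying over more than 1 gene was counted in each, without regard to strand. Exon bases were shared with another gene by 36 of the 76 standard genes, and for 9 of them the overlapping gene held more than 10% as many counts as the ribosomal protein gene. For Rpl35 this was Wdr38, with 86.5% as many counts, and for Rps25 it was Ccdc84, with 13.3%. The reads of such pairs cannot be told apart in these counts.

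The balance of the subunits was nearly the same in all 4 libraries. Small subunit genes took 40.4%, 40.3%, 41.6% and 40.1% of the counts of all 83 genes. The 95% Clopper-Pearson intervals were 40.3 to 40.6, 40.2 to 40.5, 41.5 to 41.7 and 39.9 to 40.2, and they hold for counting error alone, as the reads have no molecular identifiers. Rif1_KO replicate 1 thus stood above the other 3 libraries by more than counting error, while Rif1_KO replicate 2 was the lowest of the 4. As the log2 ratio of summed small to summed large subunit counts, the values were -0.56, -0.57, -0.49 and -0.58. The mean per label was -0.56 ± 0.0043 under WT and -0.53 ± 0.066 under Rif1_KO (SD, n = 2 each), a difference of 0.03 with an exact two-sided permutation p of 1. This difference was smaller than the spread between the libraries labelled Rif1_KO. With 2 libraries against 2 this test cannot give a p below 0.333. The Benjamini-Hochberg adjustment covered 2 main quantities, this balance and the share of counts, with an adjusted p of 1 for the balance. The same test was also run on variants of both and on other library values, without adjustment.

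The share of all counts taken by the 83 genes differed with the denominator. It was 3.52%, 3.12%, 4.83% and 4.42%, so it did not overlap between the labels. The means were 3.32% ± 0.281 and 4.62% ± 0.290 (SD, n = 2 each), with an exact two-sided permutation p of 0.333, the smallest that this design can give, and an adjusted p of 0.667. The small subunit share (1.42%, 1.26%, 2.01% and 1.77%) and the large subunit share (2.10%, 1.86%, 2.82% and 2.65%) had the same order. Haemoglobin genes took 11.8%, 8.92%, 1.08% and 0.555% of counts, and gene models of an rRNA repeat region 15.8%, 17.6%, 3.87% and 7.15%. Mitochondrial genes took 14.2%, 20.1%, 21.0% and 14.5%. Among the counts outside these 3 classes, the ribosomal protein genes took 6.05%, 5.84%, 6.52% and 5.68%. On that denominator the labels overlapped, with a mean difference of 0.154 percentage points and an exact permutation p of 1. On the TMM-scaled total the sum of the 83 genes was 41400, 39348, 43936 and 33758 CPM, highest and lowest in the libraries labelled Rif1_KO.

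**Figure D2:**
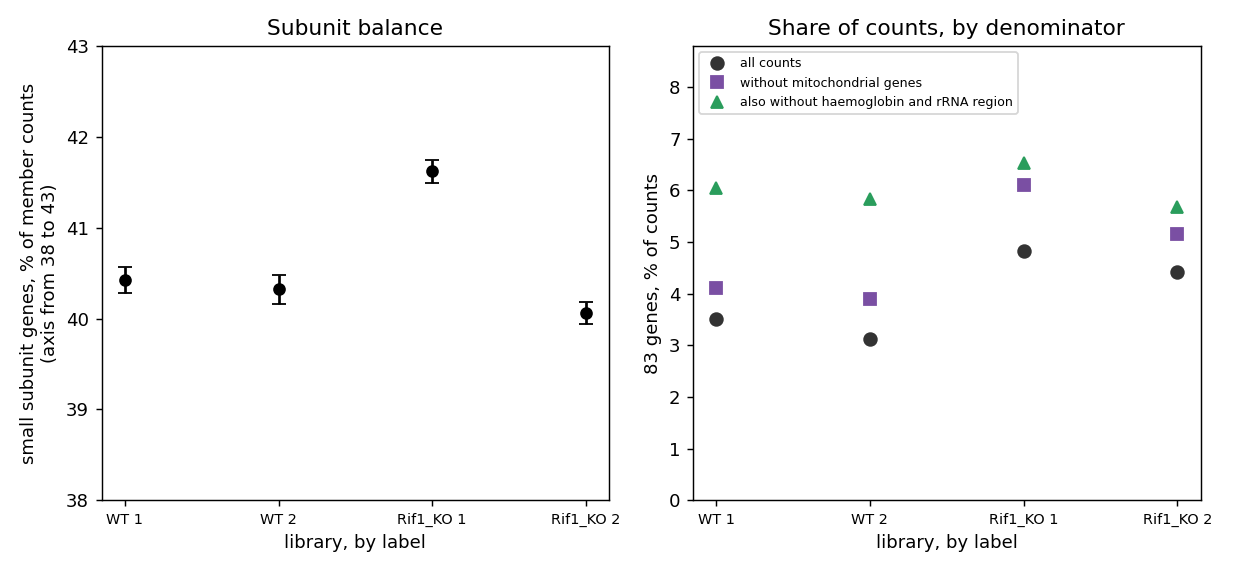
Left, share of small subunit genes in the counts of all 83 genes in each library, in percent, with 95% binomial intervals that cover counting error only, on an axis from 38 to 43. Right, share of the 83 genes in all counts (circles), without mitochondrial genes (squares), and also without haemoglobin and rRNA region genes (triangles), in percent. The circles run from 3.12% to 4.83% and separate the labels, while the triangles run from 5.68% to 6.52% and do not.

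Gene by gene, no ribosomal protein gene passed the test between the labels. Of the 83 genes 81 passed the filter on low counts, Rpl10l and Rpl3l being the exceptions. By edgeR's quasi-likelihood test with Benjamini-Hochberg adjustment over all 15466 tested genes, 0 of the 81 were called, where 0.0129% of all tested genes were. At an unadjusted p under 0.05 edgeR gave 0 of the 81, against 8.41% of all tested genes. DESeq2 called 0, against 3.36% of all tested genes, and limma-voom called 0, against 0.0129%. The fold changes were estimated more closely than for most genes: the median SE on the log2 scale was 0.31 for the ribosomal protein genes and 1.23 for all tested genes. For 45 of the 81 the 95% interval of the log2 fold change lay within -1 and 1, so that a change of more than 2-fold is outside it, and 282 of all tested genes had such an interval. A p above the threshold does not show that the remaining genes were equal.

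The median log2 fold change (Rif1_KO against WT) was -0.08 for the 32 small subunit genes and -0.10 for the 49 tested large subunit genes, beside -0.11 for all tested genes. With upper quartile factors the 3 medians were 0.20, 0.18 and 0.16, and with DESeq2's size factors -0.17, -0.18 and -0.19, so upper quartile factors turned the sign of all 3. With other settings the subunits lay farther from all genes: the 3 medians were -0.12, -0.12 and 0.08 by limma-voom, -0.09, -0.11 and 0.08 with the replicate number as a block, and 0.20, 0.19 and -0.10 without the filter on low counts. Without Rif1_KO replicate 2 the medians were 0.14 for the small subunit, 0.15 for the large subunit and -0.18 for all genes, and without Rif1_KO replicate 1 they were -0.26, -0.20 and -0.11. Fitted values were above 0 for 12 small and 19 large subunit genes and below 0 for 20 and 30. In TMM-scaled CPM both libraries labelled Rif1_KO were above both labelled WT for 2 small and 2 large subunit genes, where 21% of all tested genes had this order. They were below for 6 small and 17 large subunit genes, where 18.4% of all tested genes had that order. These counts depend on the scaling. With DESeq2's size factors 1 small and 2 large subunit genes were above and 8 and 20 below, beside 19.7% and 20.1% of all tested genes. With upper quartile factors the order reversed: 8 small and 11 large subunit genes were above and 2 and 2 below, beside 26.8% and 13% of all tested genes. Per total deposited counts 24 and 38 were above and 0 and 0 below, beside 34.4% and 9.07% of all tested genes.

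**Figure D3:**
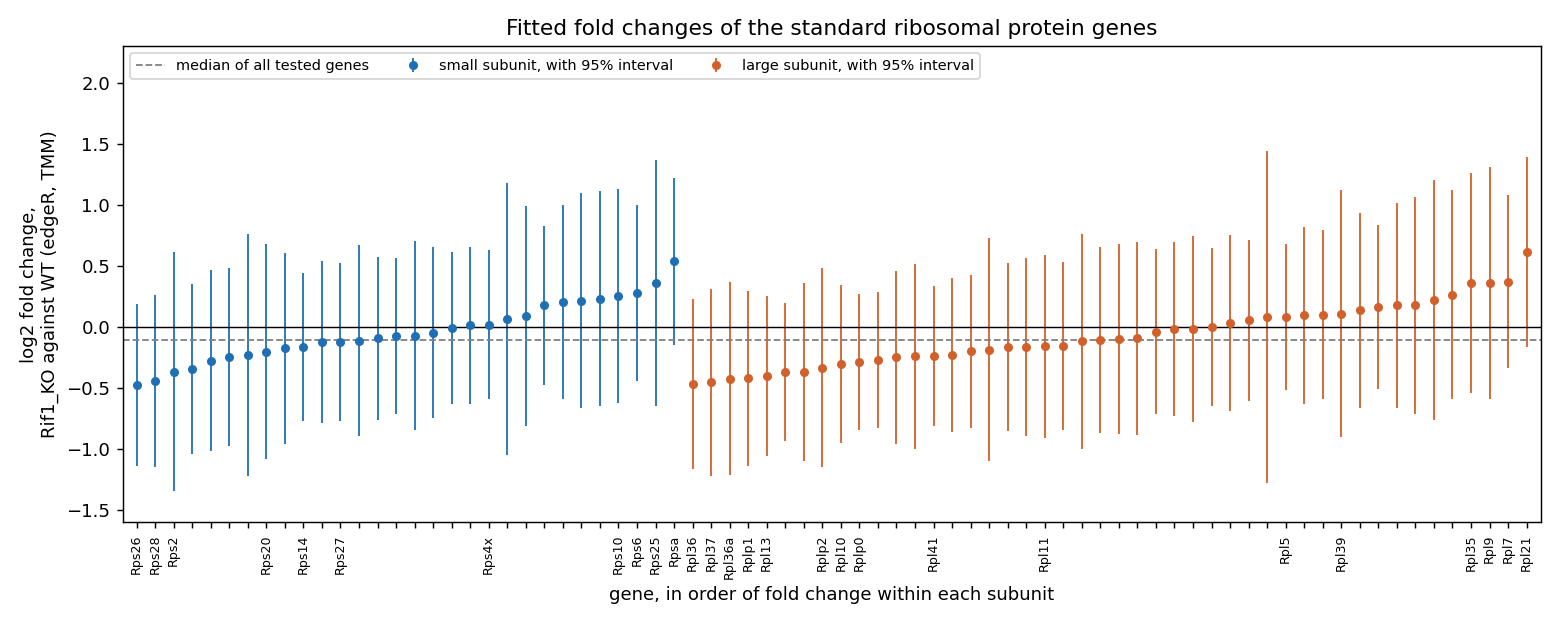
Fitted log2 fold change of the 76 standard genes, Rif1_KO against WT (edgeR, TMM scaling), with 95% intervals as lines, small subunit genes in blue and large subunit genes in orange, each in order of size. Names are given for the genes whose values the text lists by the naming rule, and the dashed line is the median of all tested genes, at -0.11. Every interval holds 0.

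In the small subunit the lowest standard gene was Rps26 (ENSMUSG00000025362.6, chromosome 10, 128624534 to 128626747 on mm10), with 829, 702, 619 and 482 CPM. Its protein lies where the mRNA leaves the small subunit. Both libraries labelled Rif1_KO were below both labelled WT, with a log2 fold change of -0.48 (SE 0.28) and an edgeR adjusted p of 0.701. Rps28, a neighbour of Rps26 at the mRNA exit, had 311, 308, 237 and 217 CPM, and Rps2 had 106, 120, 89.97 and 84.9 CPM. These genes did not overlap between the labels either, with log2 fold changes of -0.45 (SE 0.30) and -0.37 (SE 0.41) and edgeR adjusted p of 0.742 and 0.858. With upper quartile factors Rps26, Rps28 and Rps2 were at -0.19, -0.17 and -0.095, and without Rif1_KO replicate 2 Rps26 was at -0.26. At the other end stood Rpsa (ENSMUSG00000032518.6, chromosome 9, 120127689 to 120132369), the gene of a small subunit protein also known as a laminin receptor, with 321, 287, 473 and 408 CPM. It was higher in both libraries labelled Rif1_KO, with a log2 fold change of 0.54 (SE 0.29), a 95% interval of -0.15 to 1.22 and an edgeR adjusted p of 0.668. Rpsa kept its direction with each library left out, at 0.46 to 0.69. Rps10 had 146, 114, 163 and 148 CPM. By TMM its labels did not overlap either, but only by 147.5 CPM in Rif1_KO replicate 2 against 145.8 in WT replicate 1. Its log2 fold change was 0.26 (SE 0.37), which was 0.098 without WT replicate 2 and 0.49 without WT replicate 1.

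Rps25 and Rps6 were the remaining 2 of the 4 highest small subunit genes. Rps25 (ENSMUSG00000009927.9, chromosome 9, 44407139 to 44410427) had 831, 1034, 1695 and 699 CPM, and its log2 fold change was 0.36 (SE 0.42), or -0.33 without Rif1_KO replicate 1. Rps6, whose protein is the substrate of S6 kinase downstream of mTOR, had 795, 667, 1066 and 702 CPM, and its log2 fold change was 0.27 (SE 0.30). Without Rif1_KO replicate 1 the value of Rps6 was 0.02. For both genes Rif1_KO replicate 1 was the highest of the 4 libraries and replicate 2 lay within or below the range of the label WT. Of the most abundant genes of this subunit, Rps27 had 1120, 839, 973 and 826 CPM and Rps14 had 1429, 1109, 1181 and 1080 CPM, both with overlap between the labels and log2 fold changes of -0.12 (SE 0.27) and -0.17 (SE 0.26).

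In the large subunit the lowest standard genes were Rpl36, Rpl37 and Rpl36a. Rpl36 had 385, 333, 261 and 257 CPM, and its log2 fold change was -0.47 (SE 0.29), with an edgeR adjusted p of 0.717. Rpl37 had 336, 352, 296 and 206 CPM and a fitted value of -0.46 (SE 0.32). Rpl36a had 329, 268, 259 and 186 CPM and a fitted value of -0.43 (SE 0.33). All 3 were lower in both libraries labelled Rif1_KO, and their direction stayed with each library left out, over a range of -0.66 to -0.16, Rpl37 and Rpl36a reaching -0.16 without Rif1_KO replicate 2. With upper quartile factors Rpl36, Rpl37 and Rpl36a were at -0.19, -0.17 and -0.14. Rpl21 (ENSMUSG00000041453.12, chromosome 5, 146832890 to 146837032) was the highest, with 147, 158, 246 and 219 CPM, a fitted value of 0.61 (SE 0.33) and an edgeR adjusted p of 0.668. Its labels did not overlap, and with each library left out the value was 0.61 to 0.74. Rpl7 (843, 632, 1107 and 797 CPM) and Rpl9 (513, 348, 728 and 375 CPM) overlapped between the labels, with log2 fold changes of 0.37 (SE 0.30) and 0.36 (SE 0.40), and without Rif1_KO replicate 1 they were 0.19 and -0.12. Rpl7 was at 0.18 without WT replicate 2, 0.64 without WT replicate 1 and 0.63 without Rif1_KO replicate 2. Rpl35 (ENSMUSG00000062997.6, chromosome 2, 39001580 to 39005624) had 1600, 1670, 2871 and 1319 CPM, and its log2 fold change was 0.36 (SE 0.38), or -0.23 without Rif1_KO replicate 1. Rpl41 (1203, 1123, 1049 and 924 CPM) and Rpl13 (1115, 843, 680 and 803 CPM) were lower in both libraries labelled Rif1_KO, with log2 fold changes of -0.24 (SE 0.24) and -0.40 (SE 0.27). With upper quartile factors these were 0.039 and -0.13. Rpl41 was at -0.099 without Rif1_KO replicate 2 and -0.14 without WT replicate 1, and Rpl13 at -0.14 without WT replicate 1 and -0.21 without Rif1_KO replicate 1.

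The stalk of the large subunit, made of Rplp0 and pairs of Rplp1 and Rplp2, recruits the translation factors that hydrolyse GTP. Rplp0 had 1547, 1443, 1212 and 1238 CPM. Rplp1 had 350, 452, 320 and 279 CPM, and Rplp2 had 228, 208, 198 and 148 CPM. All 3 were lower in both libraries labelled Rif1_KO, with log2 fold changes of -0.29 (SE 0.23), -0.42 (SE 0.30) and -0.33 (SE 0.34) and edgeR adjusted p of 0.796, 0.762 and 0.840. By TMM 18.4% of all tested genes had this order, and per total deposited counts 0 large subunit genes did. With upper quartile factors the values were -0.015, -0.15 and -0.052, and without the filter on low counts Rplp0 was at 0.0078. With each library left out they ranged from -0.33 to -0.19 for Rplp0, from -0.55 to -0.22 for Rplp1 (without WT replicate 2) and from -0.48 to -0.088 for Rplp2 (without Rif1_KO replicate 2).

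Rpl5 and Rpl11 bind the 5S rRNA together and, outside the ribosome, are known to hold Mdm2 in check. Rpl5 had 1066, 1204, 1330 and 1074 CPM and Rpl11 had 495, 465, 517 and 342 CPM. Both overlapped between the labels, with log2 fold changes of 0.08 (SE 0.25) and -0.16 (SE 0.31). The 4 genes on the X chromosome showed no common order. Rpl10, whose protein joins the large subunit last, had 562, 497, 414 and 444 CPM, and Rpl36a is given above. Rpl39, which encodes a short protein of the exit tunnel, had 120, 140, 178 and 102 CPM, and Rps4x had 777, 759, 845 and 711 CPM. The log2 fold changes were -0.30 (SE 0.27) for Rpl10, 0.11 (SE 0.43) for Rpl39 and 0.02 (SE 0.26) for Rps4x.

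Libraries of the same label also differed from each other. In TMM-scaled CPM 69 of the 76 standard genes were higher in Rif1_KO replicate 1 than in replicate 2. Of the 76, 19 were more than 1.5-fold higher and 0 more than 1.5-fold lower. Such counts of genes depend on the scaling, and the TMM factors of these libraries were 1.107 and 1.319. Per deposited totals the 83 genes took 4.83% and 4.42%, against sums of 43936 and 33758 CPM. After removing the shift common to all members, 5 of the 76 differed by more than 1.5-fold within each label. The genes of this comparison without values above were named after their values were seen. The 7 genes with the opposite order were all of the large subunit, with Rpl13, Rpl15 and Rplp0 among them. In the pair labelled WT 45 of 76 were higher in replicate 1, and 5 differed by more than 1.5-fold in either direction. The lowest of the 4 values was in Rif1_KO replicate 2 for 50 genes and the highest in Rif1_KO replicate 1 for 36. Rps25, Rpl35 and Rpl22 differed most within the pair labelled Rif1_KO, by 2.43-fold, 2.18-fold and 2.08-fold, and Rps24 (524, 532, 814 and 412 CPM) followed with 1.98-fold. Rpl22, with 61.2, 115, 126 and 60.5 CPM, also differed under the label WT, where replicate 1 was at 0.531 of replicate 2. Rps12 had 162, 91.5, 165 and 100.1 CPM, Rpl12 239, 139, 265 and 175 CPM and Rps7 782, 503, 682 and 507 CPM, so these 3 were higher in replicate 1 under either label. Rpl23 had 326, 500.0, 429 and 345 CPM and made up the last of the 5 in the pair labelled WT.

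**Figure D4:**
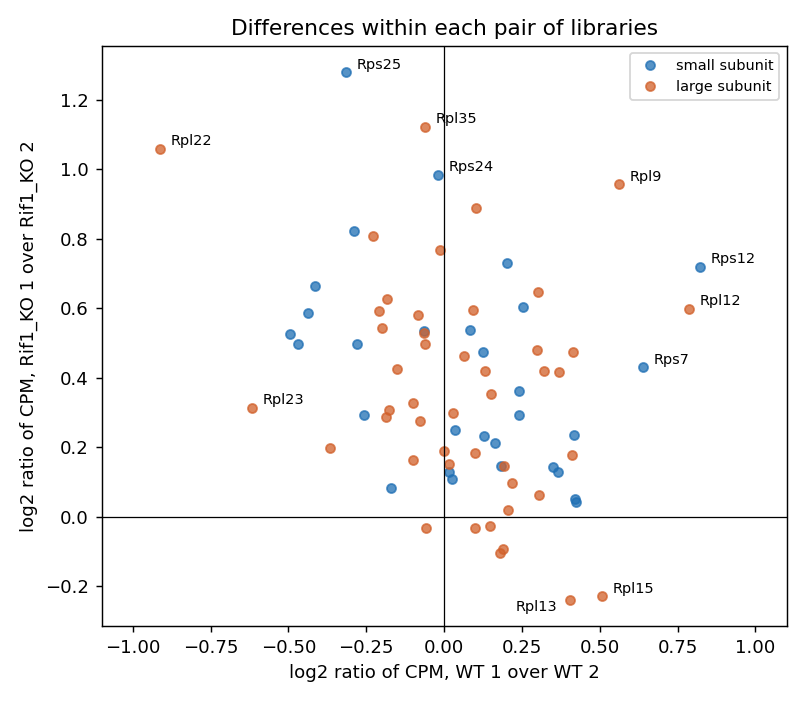
Log2 ratio of CPM between the libraries labelled WT (horizontal) and between those labelled Rif1_KO (vertical) for each of the 76 standard genes, replicate 1 over replicate 2. Blue points are small and orange points large subunit genes, and the genes farthest out are named. With TMM scaling 69 of the 76 points lie above the horizontal line and 45 to the right of the vertical one, and another scaling would shift all points together.

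Profiles over the 76 standard genes were compared between all pairs of libraries. Pearson's r of log2 CPM across these genes was 0.952 between the libraries labelled WT and 0.951 between those labelled Rif1_KO. Across labels it was 0.973 for WT replicate 1 with Rif1_KO replicate 2 and 0.950 for WT replicate 2 with Rif1_KO replicate 2. With Rif1_KO replicate 1 it was 0.929 for WT replicate 1 and 0.933 for WT replicate 2. These values describe 76 genes that share the depth and composition of each library, and genes are not independent replicates. After removing the shift common to all members, 5 genes differed by more than 1.5-fold within each label. Across labels 10 did between WT replicate 1 and Rif1_KO replicate 1, 2 between WT replicate 1 and Rif1_KO replicate 2, 13 between WT replicate 2 and Rif1_KO replicate 1, and 7 between WT replicate 2 and Rif1_KO replicate 2.

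Of the 7 second genes, with symbols ending in l, 3 were well covered. Among them Rps4l and Rpl6l have a main transcript without an annotated coding sequence. Rps27l, a p53 target that resembles Rps27, had 281, 383, 303 and 213 CPM. It held 20.1%, 31.4%, 23.7% and 20.5% of the counts of the pair with Rps27, highest in WT replicate 2. Rps4l (ENSMUSG00000063171.4, chromosome 6, 148354656 to 148355598), an autosomal relative of the X-linked Rps4x, had 74.2, 105, 28.7 and 53.2 CPM and held 8.71%, 12.1%, 3.28% and 6.96% of its pair. Rps4l was lower in both libraries labelled Rif1_KO, with a log2 fold change of -1.13 (SE 0.58), a 95% interval of -2.50 to 0.25 and an edgeR adjusted p of 0.653, and with each library left out it was -1.58 to -0.66. Its unadjusted p of 0.094 was the smallest of the 81 genes. Rpl6l had 58.4, 70.6, 87.0 and 58.0 CPM and kept a nearly constant 6.26%, 7.19%, 7.42% and 7.02% of its pair with Rpl6. These shares are of counts, not per length, and reads of near-identical copies can be split between them or lost through the mapping quality limit.

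The remaining 4 second genes rested on few counts. Rpl39l, a relative of Rpl39 known from male germ cells, had 1, 49, 25 and 1 counts, which is 0.0770%, 3.63%, 1.05% and 0.0521% of its pair. Its fitted log2 fold change of -1.47 (SE 1.93) was 3.27 without WT replicate 2 and -5.31 at the other end of the values with 1 library left out. Rpl10l, an autosomal relative of Rpl10 needed in meiosis, had 1, 3, 65 and 1 counts, so that 1.17% of its pair in Rif1_KO replicate 1 stood against at most 0.0649% elsewhere. The germ cell markers had their highest sum in WT replicate 2, as did Rpl39l and unlike Rpl10l, and their part in either gene was not tested. Rpl32l, with 5, 4, 10 and 16 counts, had a log2 fold change of 0.83 (SE 0.85), and Rpl3l, a relative of Rpl3 known from muscle, had 7, 8, 2 and 3 counts. Of related genes outside the naming rule, Rpl22l1 held most of the counts it shares with Rpl22, with 84.4%, 67.6%, 75.6% and 77.6%. Rpl36al held 26.1%, 35.3%, 37.6% and 38.2% of the counts of its pair with Rpl36a. The share of Rpl36al was lowest in WT replicate 1, and that of Rpl22l1 was highest there.

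**Figure D5:**
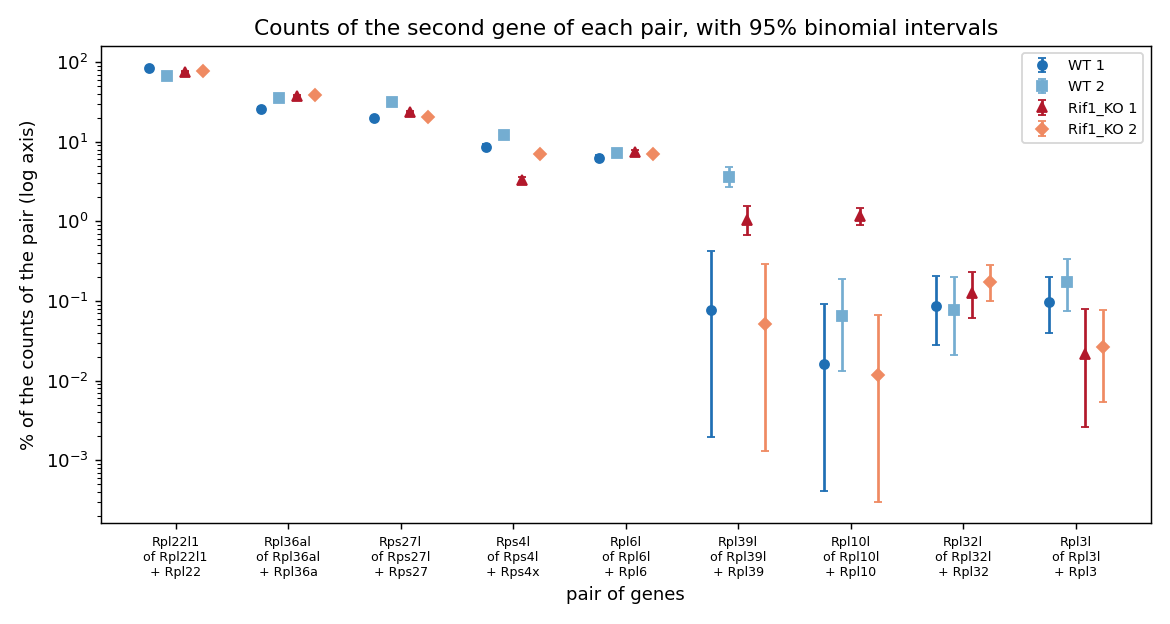
Share of each second gene in the counts of its pair, in percent on a log axis, for 9 pairs in the 4 libraries, with 95% binomial intervals that cover counting error only. Rps27l and Rpl6l vary little beside Rpl39l, which is higher in WT replicate 2 and Rif1_KO replicate 1, and Rpl10l, which is higher in Rif1_KO replicate 1.

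Among other genes of the translation machinery 0 passed the edgeR test over all genes in any list, where 0.0129% of all tested genes did. Of 36 initiation factors 17 had fitted values above 0 and 19 below, with a median log2 fold change of -0.01. The unadjusted edgeR p was under 0.05 for 4 of the 36, where it was for 8.41% of all tested genes. Eif5, which triggers GTP hydrolysis at the start codon, had 434, 503, 209 and 275 CPM, and its log2 fold change was -0.95 (SE 0.31). Eif3b, a core subunit of the eIF3 complex, had 11.1, 6.34, 49.7 and 51.2 CPM and a fitted value of 2.53 (SE 0.87). Both had an edgeR adjusted p of 0.571. Of 10 elongation and termination factors 5 were above and 5 below 0, with a median of -0.06. Eif5a was at 618, 597, 165 and 408 CPM and the translocase gene Eef2 at 387, 333, 182 and 271 CPM, so both were lower under the label Rif1_KO, with edgeR adjusted p of 0.584 and 0.637.

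Factors that make ribosomes were tested in the same fit. Of 15 genes for RNA polymerase I, which transcribes rRNA, and its factors 9 were above and 6 below 0, with a median of 0.17. Polr1b had 8.48, 1.18, 0.301 and 0.371 CPM and Polr1d 100.1, 123, 64.8 and 63.1 CPM. Of 8 proteins of the guide RNA complexes that modify rRNA 4 were above and 4 below 0, with a median of -0.08. Among them Nop58 had 116, 102, 47.3 and 41.4 CPM and Nop56 168, 152, 46.2 and 150.4 CPM. For small subunit assembly 12 of 32 tested factors were above and 20 below 0, with a median of -0.25. Of these 32, 4 had an unadjusted edgeR p under 0.05, where 8.41% of all tested genes did, and 2 were called by DESeq2. DESeq2 called 3.36% of all tested genes, and its 2 calls here were Tsr1 and Wdr3, the latter named after its values were seen. Tsr1, which acts late in 40S maturation, had 1.20, 0.752, 41.7 and 23.9 CPM, with an edgeR adjusted p of 0.571 and a DESeq2 adjusted p of 0.00018. Wdr3 had 2.12, 1.93, 26.7 and 16.3 CPM, with values of 0.577 and 0.025. Pno1, which also acts in 40S maturation, had 76.6, 134, 31.8 and 33.2 CPM, the opposite order. For large subunit assembly 14 of 30 tested factors were above and 16 below 0, with a median of -0.08. Rpf1 had 17.04, 15.8, 49.0 and 47.9 CPM and Sbds, which acts in the last step of 60S maturation, 94.7, 95.7, 43.4 and 53.7 CPM.

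Of 15 regulators of ribosomal protein synthesis, among them the mTOR pathway, Larp1 and the Myc genes, 9 were above and 6 below 0, with a median of 0.04. Myc had 85.3, 150.3, 44.0 and 55.4 CPM and Mycn 86.9, 58.7, 37.7 and 26.6 CPM, both lower in both libraries labelled Rif1_KO, with edgeR adjusted p of 0.585 and 0.649. The separate set of 78 mitochondrial ribosomal protein genes had 31 values above and 47 below 0, with a median of -0.19. Mrpl45 had 187, 336, 86.8 and 92.2 CPM and Mrps27 76.2, 97.4, 21.2 and 17.4 CPM, each with an edgeR adjusted p of 0.571. Whether any of these lists stands apart from other genes was not tested.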

How the data were processed

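RNA-seq was measured in 4 libraries, 2 labelled WT and 2 labelled Rif1_KO, and the groups follow the genotype label. The authors deposited whole-number counts per gene; per the file headers they were made with featureCounts 1.6.2 on GENCODE M17, for read pairs with a mapping quality of at least 30, for every gene a read overlaps and without strand. HISAT2, SAMtools, Trim Galore and FastQC were used with mm10, per the submitters' processing notes. The names of 95 identifiers were not found.

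From these counts 15466 genes were kept with edgeR's filterByExpr (minimum count 10) and tested with edgeR 4.0.16 in R 4.3.3 (quasi-likelihood, robust, TMM, adjusted p threshold 0.05, no covariate). The SE was taken from each fold change (log2) over the root of its F statistic. CPM uses TMM-scaled totals, and shares use deposited totals. The alternatives were DESeq2 1.42.0, limma 3.58.1 (voom), other size factors and filters, other denominators, a replicate block and leaving out each library. Levels per kb use the main GENCODE M21 transcript unless merged exons are named. Libraries of a pair differed beyond sampling noise (chi-square over its degrees of freedom 50.8 for WT and 43.6 for Rif1_KO over all genes, and 89.1 and 228 over the ribosomal protein genes).

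The genes, the lists and the tests were chosen with earlier results of these data known. Values in every library are given for the 3 highest and 2 lowest genes of each subunit per length, its 4 highest and 4 lowest fold changes, every second gene, the stalk, Rpl5, Rpl11 and the X-linked genes, and for 2 genes of each translation list by smallest p. Some single genes are not reported here. The steps were tested on simulated data with larger fold changes than the fitted ones of the ribosomal protein genes. The simulated spread was less than the common one of these data (biological coefficient of variation 0.842). This test does not bear on small changes. Promoter entries were matched by symbol for 61 of the 83 genes, credited to RefSeq on GRCm38.p6.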

Additional observations from a re-analysis of the deposited data

How the results depend on the processing

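Calls among the ribosomal protein genes numbered 0 in every setting tried. Over all genes 2 were called by edgeR, 0 with upper quartile factors, 54 without the filter on low counts, 0 with a minimum count of 50, 519 by DESeq2, 7 with the replicate block and 5 to 1345 with each library left out, where the remaining library of a label is assumed to vary like the other label. Deviations of same-numbered libraries from their label means had a correlation of -0.03 over 15466 genes. With 2 libraries per label this does not show whether the replicate numbers pair the libraries. The block changed no call of a ribosomal protein gene. The median log2 fold change of the small subunit was 0.20 with upper quartile factors, 0.20 without the filter and -0.26 to 0.14 with each library left out, and that of the large subunit 0.18, 0.19 and -0.20 to 0.15. The share of counts, 1.30 percentage points higher under the label Rif1_KO, was 1.64 higher without mitochondrial counts, 0.154 without mitochondrial, haemoglobin and rRNA region counts, and -0.153 on the TMM-scaled total. The balance of the subunits moved by less than the spread between libraries in every setting, from -0.02 to 0.07. Of 32 named genes with a fold change 14 changed sign in at least 1 setting, and none of these values passed the threshold. With upper quartile factors Rpl11 was at 0.12, Rpl41 at 0.039, Rps14 at 0.11, Rps20 at 0.081 and Rps27 at 0.16. Without the filter Rpl11 was at 0.12, Rpl41 at 0.051, Rplp0 at 0.0078, Rps14 at 0.12, Rps20 at 0.087 and Rps27 at 0.16. Rps4x was at -0.065 with DESeq2's size factors and by DESeq2, -0.013 with a minimum count of 50 and -0.0036 by limma-voom, and Rpl5 at -0.000165 and -0.000157 in the first 2 of these. With each library left out the ranges were -0.41 to 0.16 for Rpl11, -0.23 to 0.86 for Rpl35, -0.27 to 0.51 for Rpl39, -5.31 to 3.27 for Rpl39l, -0.067 to 0.49 for Rpl6l, -0.12 to 0.80 for Rpl9, -0.33 to 0.077 for Rps14, -0.49 to 0.15 for Rps20, -0.33 to 0.92 for Rps25, -0.31 to 0.15 for Rps27 and -0.030 to 0.19 for Rps4x. The cause of these changes was not tested.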

Other observations

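Proteins of the ribosome whose genes fall outside the naming rule had levels in the same range as the standard genes. Rack1, a signalling scaffold on the head of the small subunit, had 682, 648, 795 and 675 CPM, and Fau, which encodes the small subunit protein eS30 fused to a ubiquitin-like protein, had 500, 437, 443 and 399 CPM. Rps3a1 had 739, 826, 1057 and 688 CPM. Rpl7l1 was lower in both libraries labelled Rif1_KO, with 68.7, 123, 63.0 and 53.4 CPM, and its log2 fold change was -0.72 with an edgeR adjusted p of 0.766. Of the 8 such genes 4 had fitted values above 0 and 4 below, and 0 were called by edgeR or DESeq2, with 0 at an unadjusted edgeR p under 0.05.

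Across the 76 standard genes the log2 fold change had a Spearman correlation of 0.19 with transcript length and of -0.25 with GC content, beside 0.01 and -0.15 across 15388 tested genes with a transcript. These are descriptions across genes that share the same 4 libraries, and genes are not independent replicates.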
